A study of Danio rerio with 18 samples.

Results

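The comparison described here sets zebrafish larvae held in 1500 µg/L bisphenol-A (BPA) directly against larvae held in 500 µg/L BPA, with no control array in the contrast. It was chosen by sample title and takes 9 of the 18 deposited scans: replicates 1 to 5 at 500 µg/L and replicates 1 to 4 at 1500 µg/L. Replicates 3 and 4 at 1500 µg/L share the larval-channel value of 99.98% of their spots, so they were averaged and counted as 1 array. The lower concentration thus has 5 arrays and the higher one 3, 8 of 16 arrays in all. Both groups were whole wild-type fish sampled at 7 days post-fertilization, and in both the exposure began 3 hours after fertilization and lasted 7 days, at nominal concentrations and with 0.05% ethanol as the vehicle. On each array the Cy5 channel held total RNA of a pool of larvae, and the Cy3 channel held one reference used throughout, RNA of whole adult fish, mostly male with a smaller female share. Every value below is therefore a log2 ratio of larva over adult reference. Unless another is named, every difference is the mean ratio at 1500 µg/L minus the mean ratio at 500 µg/L. A further comparison and some alternative fits also take 4 arrays of larvae at 4500 µg/L BPA and 4 of vehicle controls, with the same timing and vehicle. Control replicates 4 and 5 share 99.83% of their larval-channel values and were likewise averaged as 1 array.

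BPA is a plastics monomer that binds estrogen receptors weakly and also acts on other nuclear receptors and on ion channels. In fish, estrogen receptor activation is best known for switching on the vitellogenin genes, which encode egg-yolk precursors, in the liver. A 7-day larva has a beating heart, contracting trunk muscle, a functional eye and a liver, pancreas and gut that are starting to work, so RNA of the whole fish mixes all of these organs. In such bulk RNA, fewer cells of a type and less RNA per cell cannot be told apart. The pools also average out differences between larvae, and the labels call the arrays biological replicates without saying which clutches they came from, so the p-values measure the spread between these pools.

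No probe differed between the concentrations at an adjusted p under 0.05. The probes of casp8ap2, slc14a2, hoga1 and dnajb9b lay higher at 1500 µg/L on all 3 arrays than on any measured array at 500 µg/L, by 0.88 to 1.85 on the log2 scale. Second probes of casp8ap2 and slc14a2 differed by -0.06 and -0.35. The probes of pkma, gabpa, psma6a and dnajc11a lay lower on all 3 arrays, by 0.83 to 0.93. Of all probes tested on spots that the authors kept, 6.86% had separate groups, 2.34% above and 4.53% below. Ribosomal protein genes had a median difference of -0.33, against -0.08 over all tested probes, but this came from replicates 1 and 3 at 1500 µg/L and was absent in replicate 2. Those 2 arrays also had a lower background of the reference channel than the rest. On kept spots, their ratios also followed the order of the probe collection more strongly. They correlated with replicate 2 at r of 0.365 and 0.263, but replicate 3 at 500 µg/L did so at only 0.36, as set out next.

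Probes were tested in 2 ways. In the first, only spots for which the authors kept a ratio were used, and a probe needed 3 such values in each group, which left 4153 of 22980 probes. limma called 0 of these probes at an adjusted p under 0.05, and the smallest adjusted p was 0.119. At an unadjusted p under 0.05 it called 494 probes, 11.9% of those tested. Of these, 157 probes were higher at 1500 µg/L, 3.78% of all tested, and 337 were lower, 8.11%. The methods' t-test called 416 probes at the same unadjusted threshold and 0 after adjustment. With each array centred on its median in place of loess, 61 probes were higher and 638 lower. The median difference over all probes was then -0.20 in place of -0.08. The cause of the changed counts was not tested. In the second way every spot was used, kept or not, which gave all 22980 probes a test. limma then called 0 probes after adjustment and 2410 without it, 10.5% of the total, with 1481 higher (6.44%) and 929 lower (4.04%). The methods' t-test called 1 probe after adjustment on every spot and 2012 probes without adjustment. The balance of directions thus turned around between the kept spots, which are mostly the brighter ones, and all spots. With all probes divided into 4 equal classes of brightness, 6.65% of the dimmest class were higher and 1.48% lower, whereas in the brightest class 4.73% were higher and 6.39% lower. Among kept probes alone the classes went the other way. In their dimmest class 3.08% were higher and 8.37% lower, and in their brightest 5.59% and 7.51%. The cause of the turn was not tested.

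Replicate 2 at 1500 µg/L stood apart from the other arrays of its group. Over the probes, its ratios correlated with those of replicates 1 and 3 at r of 0.365 and 0.263. With replicates 1 to 5 at 500 µg/L the coefficients were 0.43, 0.563, 0.36, 0.559 and 0.585. Replicates 1 and 3 correlated with each other at 0.60, and pairs of arrays at 500 µg/L at 0.457 to 0.703. These coefficients are across probes, which are not independent replicates. The median background of the Cy3 reference channel was 129 and 92 scanner units on replicates 1 and 3 at 1500 µg/L, 171 units on replicate 2, and 162 to 218 units on the 5 arrays at 500 µg/L. Both arrays below 150 units were therefore at 1500 µg/L. A low Cy3 background and the higher concentration cannot be told apart on them. Among the 337 probes that were lower at an unadjusted p under 0.05, replicate 2 was the array nearest to the 500 µg/L mean in 291, with a median difference of -0.23 against -0.79 and -0.96 for replicates 1 and 3. Among the 157 probes that were higher it was nearest in 93. Leaving replicate 2 out raised the count at an adjusted p under 0.05 from 0 to 370 probes, 114 of them higher and 256 lower.

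The direction of a difference also went with the place of a probe in the collection. With all probes ordered by spot ID and divided into 12 equal parts, 48 of the 379 kept probes of the first part were higher at an unadjusted p under 0.05 (12.7%) and 0 were lower. In the seventh part 0 of 329 probes were higher and 52 were lower (15.8%), and in the eighth part 46 of 258 were lower (17.8%). The median ratio of replicate 1 at 1500 µg/L went from 0.57 in the first part to -0.43 in the eighth, and that of replicate 3 from 0.295 to -0.45. Replicate 2 stayed between -0.17 and 0.11 throughout. At 500 µg/L, replicate 3 also drifted, from 0.126 in the fourth part to -0.33 in the eleventh. On every spot, replicate 1 at 1500 µg/L went from 0.315 in the first part to -0.11 in the seventh. Replicate 3 there went from 0.247 in the second part to -0.128 in the eleventh. Replicate 2 at 500 µg/L went from 0.102 in the sixth part to -0.277 in the twelfth. On every spot 16.6% of the first part were higher, and the share of lower probes was 7.05% in the eighth. When a running median over neighbouring spots in ID order was subtracted from each array, 390 kept probes remained at an unadjusted p under 0.05, 108 higher and 282 lower. The running median was taken over every spot, and on kept spots it left part of the trend. The median difference of kept probes was then -0.002 in the first part and -0.163 in the eleventh. In the eleventh part the lower probes went from 38 to 52. The part of spot order in each gene result was not tested beyond this correction, whose value is given below where it changed a difference by over 1.5 times.

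**Figure D1:**
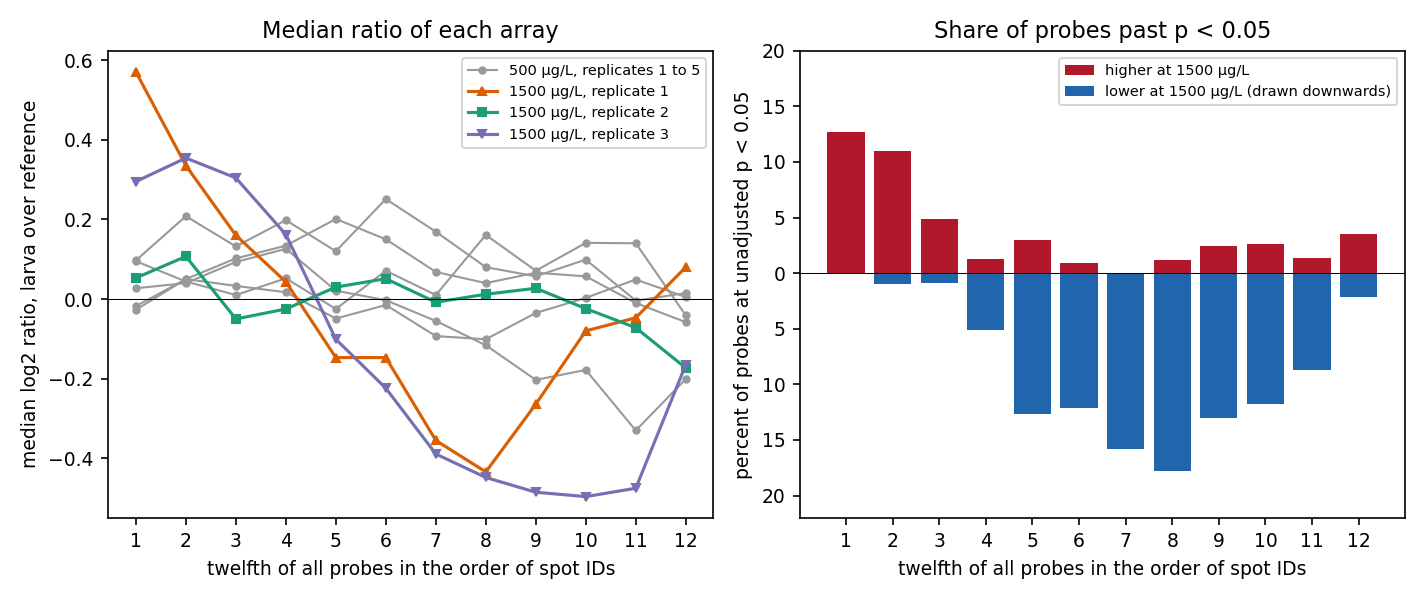
Left, the median log2 ratio of larva over reference of each array in 12 equal parts of the probes ordered by spot ID (kept spots, grey lines for the 5 arrays at 500 µg/L, coloured lines for the 3 at 1500 µg/L). Right, the percent of tested probes in each part that were higher (red, upwards) or lower (blue, drawn downwards) at 1500 µg/L at an unadjusted p under 0.05. Replicates 1 and 3 run from 0.57 and 0.295 in the first part down to -0.43 and -0.45 in the eighth, while replicate 2 stays near 0, and the share of lower probes reaches 17.8% in the eighth part.

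A gene name stands here for 1 oligonucleotide probe, and probes of one gene did not move together. On every spot, 1788 genes had at least 2 probes, and the differences of such pairs correlated at r = 0.016, with the same sign in 910 pairs (50.9%). Their ratios at 500 µg/L correlated at -0.012, and even their brightness at only 0.016. Of the 104 genes whose values are given here, 41 have several probes on the array, and the differences of 17 of these share a sign while those of 24 do not. The 86 probes of ribosomal proteins, among the most abundant transcripts of any cell, nevertheless had a median brightness at percentile 82.6 of all probes, and 55 of them lay in the brightest of the 4 classes. The match of probes to gene names, which comes from the files and the platform table, may therefore be wrong for many probes, and it was not tested. Every gene name and gene list below is to be read with that limit. The marker lists did not set the larval channel apart from the adult reference. Of 16 measured markers of lens, photoreceptors, embryonic globin, pancreas, muscle and neurons, 7 had a ratio above 0 at each concentration, against 2160 and 1946 of all 4153 probes at 500 and 1500 µg/L. Of 5 measured gonad markers, 4 lay above 0 at 500 µg/L and 3 at 1500 µg/L, although a larva of this age holds little gonad. In the paragraphs that follow, values of other probes of a gene are from every spot, and they are not given for every gene.

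**Figure D2:**
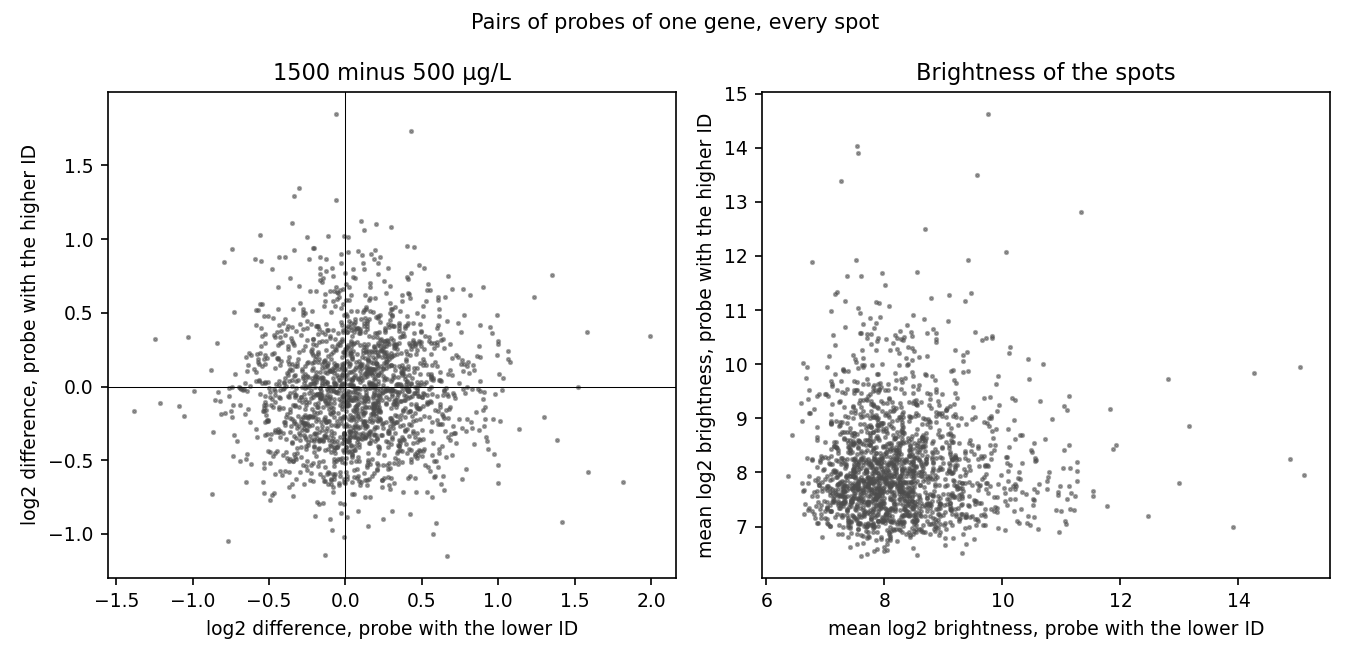
Pairs of probes of one gene, every spot, 1788 genes. Each point is a gene, with the probe of lower spot ID on the x axis and that of higher ID on the y axis. The left panel plots the log2 difference between 1500 and 500 µg/L (r = 0.016) and the right panel the mean log2 brightness over both channels (r = 0.016), and neither cloud has a slope.

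Among kept spots, 285 probes had groups that did not overlap (6.86% of those tested), 97 above (2.34%) and 188 below (4.53%), and 183 of them also had an unadjusted p under 0.05 (4.41%). The 10 largest differences of named probes in each direction among these 183 were chosen by size, so their sizes are a description. The largest was that of casp8ap2, whose product is needed for histone transcript processing in mammals. Its ratio was 1.64, 3.49 and 2.14 on replicates 1, 2 and 3 at 1500 µg/L, and 0.97, 0.68, 0.51, -0.10 and 0.81 on the 5 arrays at 500 µg/L. All 3 arrays at the higher concentration lay above all 5 at the lower one, replicate 2 farthest. The difference was 1.85 ± 0.36 (SE; limma, adjusted p = 0.119). The second casp8ap2 probe differed by -0.06.

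The urea transporter gene slc14a2 had the next smallest p among these probes. It read 0.88, 1.25 and 0.87 at 1500 µg/L and 0.31, -0.42, -0.10, 0.11 and -0.43 at 500 µg/L. Every array at 1500 µg/L was well above the highest at 500 µg/L, and replicate 2 took the top value. The difference was 1.11 ± 0.24 (limma, adjusted p = 0.235), a 2.16-fold higher mean ratio, while the other slc14a2 probe differed by -0.35. The mitochondrial aldolase gene hoga1, which acts in hydroxyproline breakdown, read 1.19, 0.63 and 0.98 at 1500 µg/L and 0.07, 0.22, -0.52, 0.37 and 0.14 at 500 µg/L. The groups were separate, and the difference of 0.88 ± 0.25 had an adjusted p of 0.392 in limma. hoga1 lies in the first part of the ID order, and with the running median subtracted its difference was 0.59.

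The endoplasmic reticulum co-chaperone gene dnajb9b was read on only 3 of the 5 arrays at 500 µg/L, at -0.39, -0.58 and -0.01. At 1500 µg/L it read 1.03, 0.14 and 1.51, so that replicate 2 lay just above the 500 µg/L group and the other 2 arrays far above. The difference was 1.22 ± 0.34 (limma, adjusted p = 0.392). The photoreceptor and progenitor membrane protein gene prom1b had the same order, with 0.35, -0.18 and 1.12 at 1500 µg/L against -0.53, -0.46, -0.25, -1.16 and -0.23 at 500 µg/L. Its replicate 2 lay within 0.1 of the highest array at 500 µg/L, and the difference was 0.96 ± 0.30, or 0.61 with the running median subtracted. The lipid-sensing nuclear receptor gene ppardb read 1.64, 0.96 and 0.83 against -0.02, 0.79, -0.70, 0.47 and 0.69, which left the groups barely apart. The other 3 ppardb probes differed by -1.07, -0.16 and 0.35. The other named probes with the largest increases were si:ch211-226m16.2 (1.195), the splicing and desmosome protein gene pnn (0.93), zgc:112982 (0.88) and the protocadherin gene pcdh2ab9 (0.83). Of these, si:ch211-226m16.2 was far below the adult reference on every array, from -4.31 to -3.04 at 500 µg/L and from -2.80 to -2.22 at 1500 µg/L.

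On the lower side, the largest difference was that of LOC553446, an uncharacterised gene, at -1.10 ± 0.28 (limma, adjusted p = 0.392). It read -0.75, -0.34 and -1.12 at 1500 µg/L and 0.94, 0.65, 0.03, -0.12 and 0.31 at 500 µg/L. Pyruvate kinase pkma, which makes the last step of glycolysis in muscle, read -1.29, -0.22 and -1.23 at 1500 µg/L, against -0.03, 0.09, 0.11, -0.14 and 0.08 at 500 µg/L. The arrays at 500 µg/L were within 0.25 of each other, and replicate 2 at 1500 µg/L fell just under them while replicates 1 and 3 lay more than 1 unit below. Its difference was -0.93 ± 0.26 (limma, adjusted p = 0.392). Without replicate 2 the pkma difference was -1.28 and its adjusted p in limma was 0.027. The 2 arrays then left at 1500 µg/L are those with a low Cy3 background. Over all 4153 probes, 370 then had an adjusted p under 0.05. The 20 probes with the largest differences were chosen from these same arrays for separated groups, so their count is a description and no test. Of these 20 probes, 14 then had an adjusted p under 0.05. The 14 included casp8ap2 (0.0319), dnajb9b (0.027), slc14a2 (0.0389), hoga1 (0.0386), prom1b (0.0339), LOC553446 (0.0319), psma6a, dnajc11a and tmem11 (0.027 each) and gbp1 (0.0302).

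The transcription factor gene gabpa, whose product drives nuclear genes of mitochondrial proteins, had the widest gap between the groups among these 10 probes. It read -1.03, -0.56 and -1.28 at 1500 µg/L and -0.09, -0.23, 0.07, 0.01 and -0.11 at 500 µg/L. Here replicate 2 also lay well below the lowest array at 500 µg/L. The difference was -0.89 ± 0.23 (limma, adjusted p = 0.392), and the array holds no other gabpa probe. Without replicate 2 the adjusted p of gabpa in limma was 0.027, with the limits given above for pkma. The proteasome core subunit gene psma6a behaved alike, at -0.94, -0.39 and -1.41 against -0.10, -0.14, -0.07, -0.14 and 0.14, a difference of -0.85 ± 0.24.

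The mitochondrial J-protein gene dnajc11a read -0.99, -0.56 and -1.46 at 1500 µg/L and between -0.30 and -0.03 at 500 µg/L. For the mitochondrial membrane protein gene tmem11, replicate 2 was at -0.384 beside a lowest 500 µg/L value of -0.376, so its groups were apart by less than 0.01. The elongation factor gene eef1g differed by -0.82 ± 0.27, the calcium-dependent kinase gene camk2d2 by -0.89 ± 0.29 and the interferon-inducible GTPase gene gbp1 by -0.84 ± 0.24. With the running median subtracted the gbp1 difference was -0.52 and that of tmem11 -0.54. Other camk2d2 probes went the opposite way, by 0.24 and 0.63, and a second gbp1 probe differed by 0.08. The microtubule-associated gene jpt2 differed by -0.90 ± 0.32, with 1 array at 500 µg/L at 1.58 and the other 3 measured ones between 0.33 and 0.52.

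**Figure D3:**
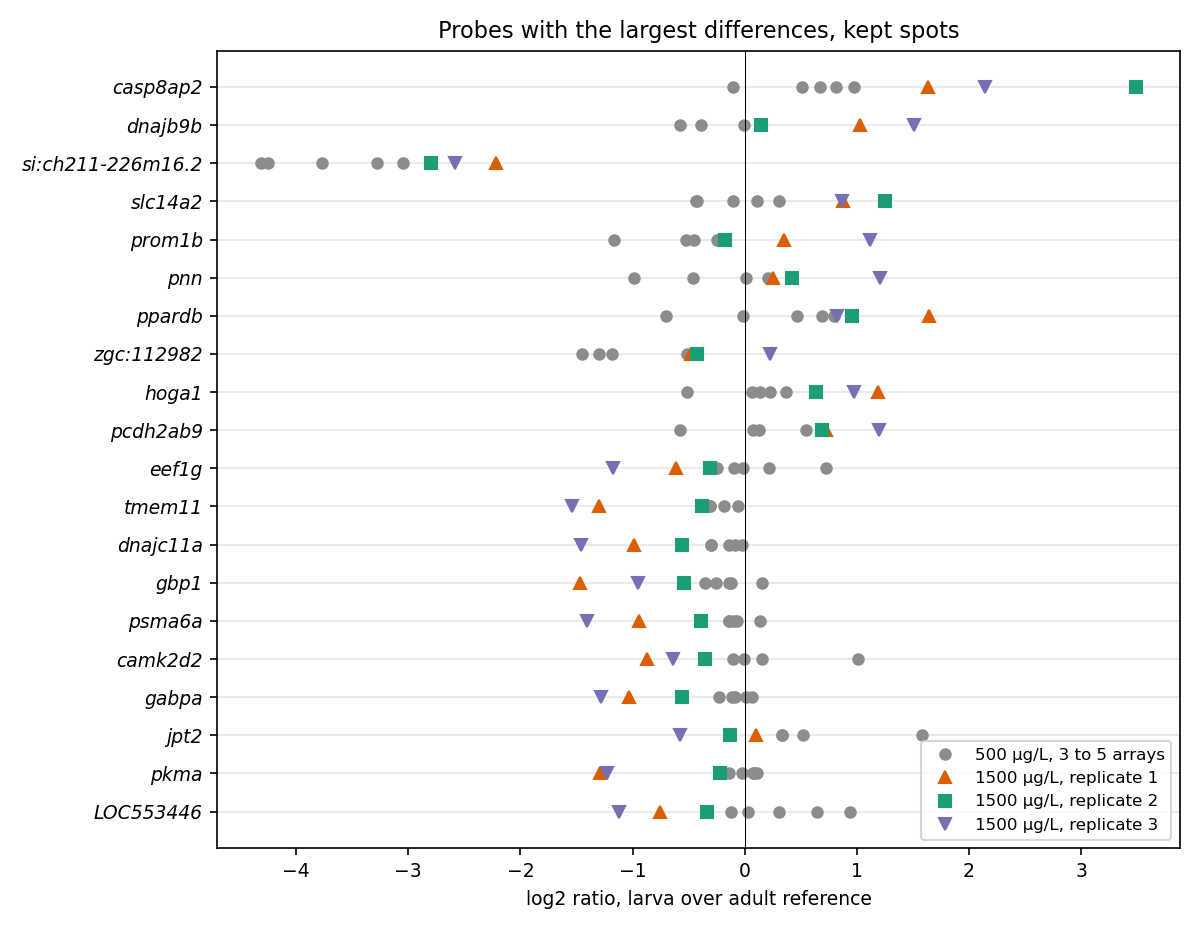
Log2 ratio of larva over adult reference of the 20 named probes with the largest differences among kept spots, chosen because the 3 arrays at 1500 µg/L (coloured) lie on one side of all measured arrays at 500 µg/L (grey). Replicate 2 (green square) is the array nearest to the 500 µg/L mean in 9 of the 10 lower rows, the exception being jpt2, and in 5 of the 10 upper rows.

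Using every spot, the groups did not overlap for 1392 probes (6.06%), 838 above (3.65%) and 554 below (2.41%), and 1066 of these had an unadjusted p under 0.05 (4.64%). Of the extreme named probes in this setting, only casp8ap2, LOC553446 and jpt2 had a kept spot on all 3 arrays at 1500 µg/L. The mevalonate kinase gene mvk, an early enzyme of cholesterol synthesis, read 0.30, 0.14 and -0.28 at 1500 µg/L. At 500 µg/L it read -2.19, -2.06, -1.99, -2.20 and -0.90. All 3 arrays at the higher concentration were near the reference level and all 5 at the lower one were below it. The difference was 1.92 ± 0.31 (limma, adjusted p = 0.22). Replicate 5 at 500 µg/L was the array nearest to those at 1500 µg/L, so leaving it out widened the difference. The difference was then 2.16, with an adjusted p of 0.0391 in limma. The mvk probe was chosen for a large separated difference and other arrays were left out likewise, so this is a description and no test. One of the 4 rps6 probes read 1.05, 1.55 and 1.22 against -0.65, -0.17, 0.20, -0.16 and -0.45, a difference of 1.52 ± 0.24 (limma, adjusted p = 0.22). The other 3 probes of this small-subunit ribosomal protein gene differed by -0.46, -0.00 and -0.16.

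The muscle-associated genes smtnl1, cap2 and popdc3 and the kinesin adaptor gene kifap3b were also among the largest increases on every spot. The smtnl1 probe read -0.93, 0.08 and -0.77 at 1500 µg/L against -2.80 to -1.86 at 500 µg/L, a difference of 1.82 ± 0.31, while the other smtnl1 probe differed by -0.65. For cap2 the difference was 1.74 ± 0.34, and for kifap3b 1.73 ± 0.35, with a second kifap3b probe at 0.43. In popdc3, replicate 2 was at 2.42 and the other 2 arrays at -0.36 and -0.33. In the protocadherin gene pcdh1g18 it was at 3.07 and the others at 0.02 and 0.16, and in pdcd2 at 2.65 and the others at 0.25 and 1.29. Replicate 2 was thus the highest array in all 3 genes. Without replicate 2 the popdc3 difference went from 1.75 to 0.83 that of pcdh1g18 from 1.99 to 1.00 and that of pdcd2 from 1.865 to 1.24. The adjusted p in limma without it was 0.287, 0.1 and 0.139. The chitinase gene chia.6 read 2.34 and 2.18 on replicates 1 and 2 but 0.21 on replicate 3, close to the highest 500 µg/L value of 0.12.

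Among decreases on every spot, gpd1l, which is related to glycerol-3-phosphate dehydrogenase, had nearly equal values on the 3 arrays. It read -0.93, -0.71 and -0.91 at 1500 µg/L and -0.17, 0.10, 0.38, 0.16 and 0.01 at 500 µg/L, a difference of -0.94 ± 0.20 (limma, adjusted p = 0.288). Other gpd1l probes differed by 0.15 and 0.09. The circadian transcription factor gene tefa read -0.87, -0.13 and -1.47 against -0.01 to 0.66, with a difference of -1.26 ± 0.29. The elongation factor gene eef1db differed by -1.09 ± 0.24, and its second probe by -0.13. The Wnt effector gene lef1 read -0.78, -0.38 and -0.91 against -0.22 to 0.93, a difference of -1.04 ± 0.29. The signal recognition particle gene srp72 differed by -1.06, the mucin-type glycosylation chaperone gene c1galt1c1 by -1.15, the proteasome lid gene psmd11a by -0.99 (-0.66 with the running median subtracted) and the cholesterol hydroxylase gene ch25hl1.1 by -0.95. A second c1galt1c1 probe went the opposite way at 0.66. Other psmd11a probes differed by -0.03 and 0.10, and a second srp72 probe by -0.20.

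Gene lists were compared by their counts and medians, using the brightest probe of each gene, beside 11.9% of probes at an unadjusted p under 0.05 and a median of -0.08 over all 4153 kept probes. Among lists with at least 20 measured genes, ribosomal proteins had the largest share of negative differences. Of 69 genes on the array, 29 were measured on kept spots, and 24 of these had a negative difference, with a median of -0.33. Only rpl6, rpl8 and rps4x were lower at an unadjusted p under 0.05 and none was higher, a share of 10.3%. On every spot, 55 of the 69 genes were negative, with a median of -0.24 against 0.04 over all probes. Of the 69, 10 were lower and 2 higher (17.4% against 10.5% of all probes).

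Per array, the median ratio of the 29 ribosomal genes was -0.77, -0.06 and -0.76 on replicates 1, 2 and 3 at 1500 µg/L and between -0.24 and -0.09 at 500 µg/L. Replicate 2 thus lay above every array at 500 µg/L and the other 2 arrays lay far below. Without replicate 2 the median difference was -0.63 and 15 of the 29 genes were lower at an unadjusted p under 0.05. With replicate 2 as the only 1500 µg/L array, which leaves the arrays with a Cy3 background of at least 150 units, the median was 0.07 and 12 genes were negative. The large-subunit gene rpl8 read -0.67, -0.21 and -1.64 against -0.34 to 0.26, and its second probe moved the same way, by -1.05 against -0.77 for the first. The small-subunit gene rps4x read -1.27, 0.04 and -1.35 against -0.53 to 0.21, with -0.49 for its second probe. For rpl6 the values were -0.83, -0.49 and -0.95 against -0.41 to 0.23, with 0.21 for its second probe. In rps4x replicate 2 lay inside the 500 µg/L range, while in rpl6 all 3 arrays lay below it.

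In oxidative phosphorylation the difference again depended on replicate 2. Of 16 measured, 13 were negative, the median was -0.28 and ndufa3 and ndufa6, both subunits of complex I, were lower at an unadjusted p under 0.05 (12.5%, close to the 11.9% of all probes). On every spot 3 of 83 were lower and 1 higher (4.82% against 10.5% of all probes), with a median of -0.09 and 49 negative. The ndufa6 ratio was -0.95, -0.27 and -1.42 at 1500 µg/L and between -0.48 and 0.01 at 500 µg/L, so replicate 2 overlapped that group. Subtracting the running median brought its difference from -0.63 to -0.33. The ndufa3 ratio was -0.01, 0.20 and -0.29 against 0.12 to 1.27, again with replicate 2 inside the 500 µg/L range. With replicate 2 as the only 1500 µg/L array the median of the 16 genes was -0.01, and without it -0.47.

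**Figure D4:**
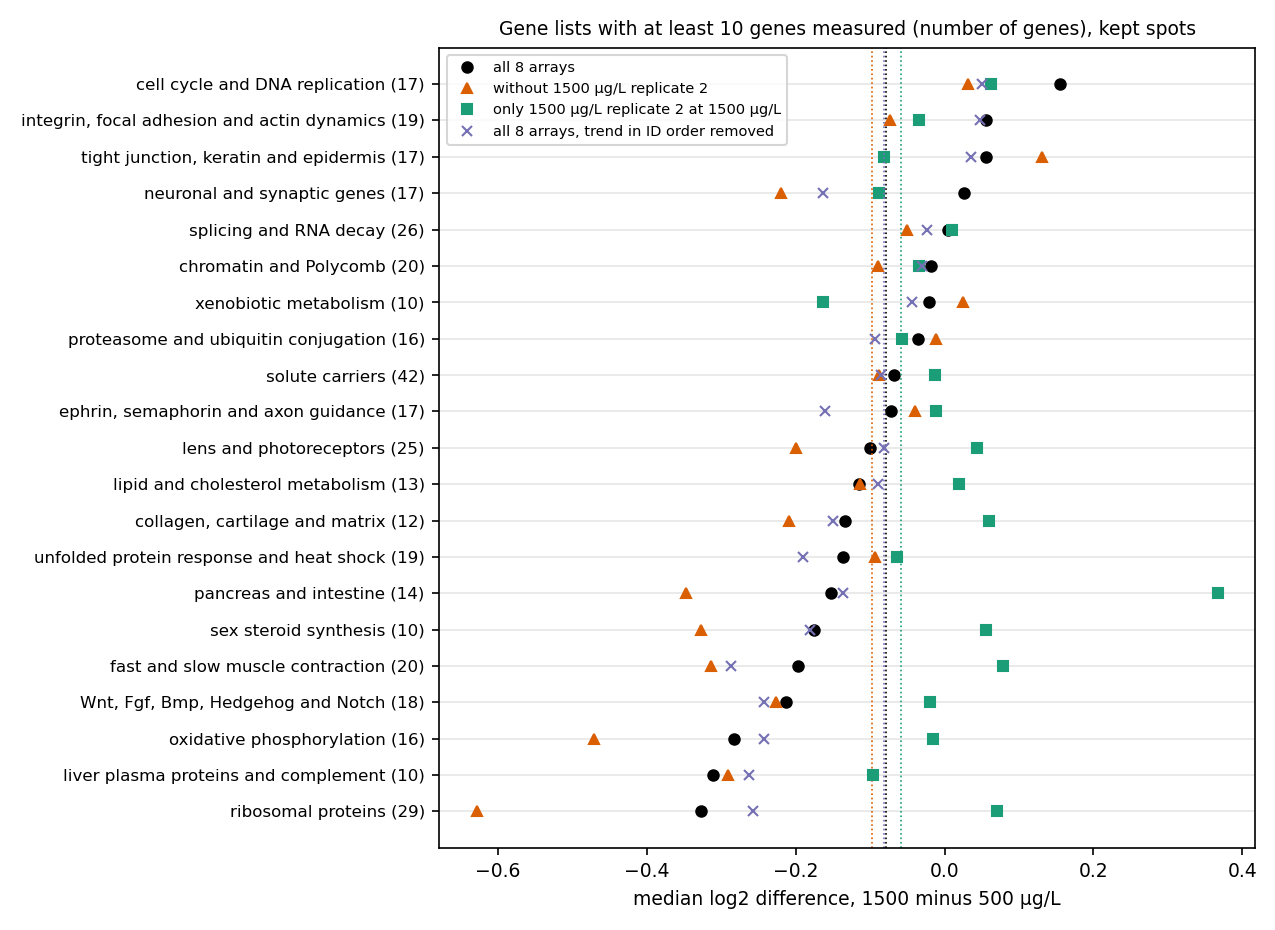
Median log2 difference, 1500 minus 500 µg/L, of each gene list with at least 10 genes measured on kept spots (number of genes in brackets). Black circles use all 8 arrays, and orange triangles leave out replicate 2 at 1500 µg/L. Green squares use replicate 2 as the only array at 1500 µg/L. Purple crosses follow subtraction of the running median in ID order, which left part of the trend on kept spots. Dotted lines mark the median of all tested probes in each setting. Ribosomal proteins lie lowest with all arrays (-0.33) and without replicate 2 (-0.63), but at 0.07 with it alone, where xenobiotic metabolism lies lowest at -0.16.

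In skeletal muscle, 4 of 20 measured contraction genes were lower at an unadjusted p under 0.05 and 0 higher, with a list median of -0.20. The troponin I gene tnni1d had the tightest values, -0.53, -0.40 and -0.46 at 1500 µg/L against 0.15, 0.01, 0.19 and -0.02 on the 4 measured arrays at 500 µg/L. Its groups were separate, with a difference of -0.55 ± 0.22 (limma, adjusted p = 0.401). The other 3 genes lay below the 500 µg/L arrays on replicates 1 and 3 alone. Troponin C tnnc1b read -1.49, -0.42 and -1.40 against -0.69 to -0.40. The calcium buffer pvalb2 read -1.07, 0.27 and -1.07 against -0.12 to 0.40, and the fast myosin light chain mylpfa read -1.16, -0.36 and -1.66 against -0.72 to -0.06. In all 3 of these genes replicate 2 lay within the 500 µg/L range. On every spot 6 of 54 contraction genes were higher and 3 lower, a turn of the balance that all probes share (3.78% higher and 8.11% lower on kept spots, 6.44% and 4.04% on every spot). With replicate 2 as the only 1500 µg/L array, the median of the 20 genes on kept spots was 0.08, and 8 were negative.

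In the digestive organs, 3 of 14 measured pancreas and intestine genes were lower (21.4%), with a median of -0.15. These were the intestinal fatty acid binding gene fabp2 (-0.61 ± 0.24), the brush border actin bundler vil1 (-0.56 ± 0.23) and the lipoprotein gene apobb.1 (-0.56 ± 0.26, and -0.30 with the running median subtracted). Other apobb.1 probes differed by -0.17 and 0.54. The vil1 ratio was -0.72, -0.38 and -0.71 against -0.25 to 0.34, which kept the groups apart, but its second probe differed by 0.79. Of the 10 measured liver plasma and complement genes, rbp4 and apobb.1 were lower and c3a.1 higher (30.0%), with a median of -0.31. The retinol carrier rbp4 read -1.14, -0.37 and -1.28 at 1500 µg/L and -0.33 to 0.02 at 500 µg/L, a difference of -0.76 ± 0.24. The complement gene c3a.1 read 0.78, -0.14 and 0.13 at 1500 µg/L and -0.96 to -0.21 on 4 arrays at 500 µg/L, a difference of 0.73 ± 0.28, or 0.29 with the running median subtracted. On every spot its 3 probes differed by -0.75, 0.57 and 0.13. With replicate 2 as the only 1500 µg/L array, the median of the pancreas and intestine list was 0.37. On every spot 4 of 42 pancreas and intestine genes were lower and 0 higher (9.52% against 10.5% of all probes), with a median of -0.04. Of 52 liver genes, 5 were lower and 3 higher there (15.4%), with a median of -0.02.

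Lists of nuclear receptors and hormone pathways had few measured genes. Of 9 measured nuclear receptors and cofactors, ppardb and the steroidogenic factor gene nr5a1b were higher and the corepressor gene ncor1 was lower. The share was 33.3%, against 11.9% of all kept probes, and another ppardb probe differed by -1.07. The nr5a1b ratio was 0.32, -0.46 and 0.15 against -0.97 to -0.25, with replicate 2 inside the lower group. The ncor1 ratio was -0.72, -0.61 and -0.19 against -0.11 to 0.24 on 3 arrays, a difference of -0.59 ± 0.26. Of 3 measured thyroid axis genes, 2 were lower, ncor1 and nkx2.1, a transcription factor of the thyroid and forebrain, at -0.51 ± 0.23. In sex steroid synthesis nr5a1b was higher and the mitochondrial dehydrogenase hsd17b10 lower among 10 genes. In xenobiotic metabolism the epoxide hydrolase ephx1 and the sulfotransferase sult1st1 were higher and sult2st1 lower among 10 genes. The ephx1 difference was 0.66 ± 0.27 and the sult1st1 difference 0.68 ± 0.29, with replicate 2 in the 500 µg/L range for both. With the running median subtracted, ephx1 differed by 0.40 and sult2st1 by -0.36 in place of -0.60.

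Neither vtg3 nor vtg4, which encode yolk precursors, passed an unadjusted p of 0.05. On every spot, vtg3 read -0.02, -0.13 and -0.74 at 1500 µg/L and -0.50, -0.33, -0.54, -0.16 and -0.43 at 500 µg/L, a difference of 0.10 ± 0.22 (limma, adjusted p = 0.9). For vtg4 the difference was 0.47 ± 0.34, with 0.29, -0.91 and -0.35 against -1.48 to -0.30. The groups overlapped in each gene. The estrogen-related list had 1 of 3 measured genes lower, gabpa, and 0 higher (33.3% against 11.9% of all kept probes). On every spot 1 of its 21 genes was lower and 0 higher (4.76% against 10.5% of all probes).

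Among patterning genes, 4 of 18 measured members of the Wnt, Fgf, Bmp, Hedgehog and Notch pathways were lower and 0 higher (22.2%), with a median of -0.21. On every spot 7 of the 126 genes were lower and 4 higher (8.73% against 10.5% of all probes), with a median of 0.05. The 4 on kept spots were the Bmp and activin antagonists fsta (-0.66 ± 0.27) and nog3 (-0.57 ± 0.26) and the ligand genes ihhb (-0.54 ± 0.23) and wnt11 (-0.71 ± 0.32). The ihhb ratio was -1.13, -0.31 and -1.03 against -0.43 to -0.19 and that of wnt11 was -0.68, 0.24 and -1.16 against -0.28 to 0.47. Replicate 2 overlapped the 500 µg/L arrays in all 4 genes. A second wnt11 probe differed by -0.31, and a second fsta probe by 0.62. Of 7 measured Hox genes, hoxc11b (-0.73 ± 0.27) and hoxd12a (-0.70 ± 0.31) were lower, and 6 of the 7 were negative. The Hox share was 28.6%, against 11.9% of all kept probes. The Hox median was -0.40 with all arrays and -0.35 with replicate 2 as the only 1500 µg/L array. On every spot the 32 Hox genes had a median of -0.03, with 18 negative, 5 lower and 2 higher (21.9% against 10.5% of all probes).

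Nervous and eye tissue lists were read against 11.9% of all kept probes. Of 17 neuronal genes camk2d2 and the tubulin gene tubb5 (-0.51 ± 0.23) were lower (11.8%), and of 8 glial genes gfap was lower and mbpb higher, above that share but on few genes. The myelin gene mbpb read 0.38, 0.35 and 0.36 at 1500 µg/L and 0.04, -0.22, -0.04, -0.14 and -0.33 at 500 µg/L. The 3 arrays at 1500 µg/L were nearly equal. Its groups were clearly apart, with a difference of 0.50 ± 0.20, which was 0.21 with the running median subtracted, and its second probe differed by -0.30. The astroglial filament gene gfap read -0.28, -0.28 and -0.67 against -0.03 to 0.33, a difference of -0.52 ± 0.22, with 0.16 and 0.06 for its other 2 probes. Of 25 lens and photoreceptor genes, rcvrna and gngt1 of the phototransduction pathway were lower and the lens crystallin crygm7 was higher, a share close to that of all probes. For crygm7 the values were 0.79, -0.49 and 1.19 against -0.69 to 0.05, so replicate 2 went with the lower concentration. The ephrin ligand gene efnb1 had the same order, 0.40, -0.34 and 1.00 against -0.47 to -0.16, and its difference of 0.68 was 0.33 with the running median subtracted. Of 17 measured ephrin, semaphorin and axon guidance genes, 1 was higher and 0 lower (5.88%). On every spot 3 of 56 were higher and 1 lower (7.14% against 10.5% of all probes).

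Among genes of growth and of the nucleus, the cell cycle list had 2 of 17 genes higher, the replication genes mcm7 (0.57 ± 0.26) and rfc2 (0.49 ± 0.22, or 0.20 with the running median subtracted), and 2 lower, the sliding clamp gene pcna (-0.63 ± 0.28) and the histone variant gene h2az2b (-0.88 ± 0.29). Replication genes thus lay on both sides, and a second pcna probe differed by 0.08. The cell cycle share was 23.5%, against 11.9% of all kept probes. The splicing and RNA decay list had 3 of 26 higher and 1 lower (15.4%), with a median of 0.00. Of the higher ones, all 3 probes of the poly(A)-binding gene pabpc1b had a positive difference (0.60, 0.41 and 0.28), and both probes of the spliceosome gene prpf3 did (0.51 and 0.80). With the running median subtracted, the first pabpc1b probe differed by 0.24. The third was lsm7, at 0.61 ± 0.27 or 0.28 with the running median subtracted. The exonuclease gene xrn2 read -1.005, -0.46 and -1.28 against -0.47 to -0.07, a difference of -0.60 ± 0.23. The H3K9 methyltransferase genes ehmt1a (-0.58 ± 0.26) and ehmt2 (-0.62 ± 0.23) were the 2 lower ones among 20 chromatin genes (10.0%), and ehmt2 differed by -0.32 with the running median subtracted.

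Adhesion and matrix genes also lay on both sides. Of 19 integrin and actin genes, the GTPase gene rhoac (0.73 ± 0.29) and the integrin-linking gene tln2a (0.57 ± 0.26) were higher, and the actin-nucleation gene arpc5b (-0.85 ± 0.35) and the receptor gene itgb1 (-0.69 ± 0.30) were lower (21.1%). The groups were separate in tln2a alone, which read 0.73, 0.32 and 0.40 against -0.41 to 0.28 on 4 arrays. Over all kept probes the share was 11.9%. On every spot 5 of 77 integrin and actin genes were higher and 3 lower (10.4% against 10.5% of all probes). Of 12 matrix genes, the cartilage collagen gene col2a1b (-0.62 ± 0.26) and thrombospondin thbs4b of tendon (-0.57 ± 0.27) were lower (16.7%). On every spot 1 of 53 matrix genes was higher and 6 lower (13.2%). Among 17 tight junction and keratin genes the claudin gene cldn19 was higher by 0.67 ± 0.28, with 0.75 for its second probe, and by 0.32 with the running median subtracted. The share of this list was 5.88%, and 4.84% of 62 genes on every spot. Of the measured cardiac, erythroid, endothelial and endocytosis genes, 3, 6, 4 and 5 in number, 0 had an unadjusted p under 0.05.

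Transport, stress and immune lists were mixed. Of 42 solute carriers, 2 were higher, slc14a2 and the zinc transporter slc39a9 (0.59 ± 0.23), and 5 were lower, with the iron transporter slc11a2 at -0.70 ± 0.24. Second probes of slc39a9 and slc11a2 differed the opposite way, by -0.61 and 0.65. On every spot, 18 of 184 solute carriers were higher and 5 lower (12.5% in all, against 10.5% of all probes). Among 19 chaperone and heat shock genes dnajb9b was higher and the mitochondrial co-chaperonin gene hspe1 lower (-0.67 ± 0.23). The p53 target gene sesn1 was higher by 0.70 ± 0.31 on replicates 1 and 3 at 1.23 and 1.98, with replicate 2 at 0.35 inside the 500 µg/L range of 0.17 to 0.74. The cholesterol synthesis gene hmgcs1 read -1.19, -0.30 and -1.52 against -0.46 to -0.10, and both of its probes were negative (-0.73 and -0.33). The first differed by -0.48 with the running median subtracted. On kept spots, 1 of 6 apoptosis and p53 genes was higher (16.7%) and 1 of 13 lipid and cholesterol genes was lower (7.69%). The shares on every spot were 2.7% of 37 and 9.26% of 54 genes, against 10.5% of all probes. The mitochondrial peroxidase gene prdx3 was the lower one of 9 antioxidant genes (-0.56 ± 0.26, or -0.33 with the running median subtracted). Of 8 immune genes, the leukocyte actin regulator gene coro1a was lower and the antigen-presentation gene b2m higher. The coro1a ratio was -2.06, -0.28 and -1.74 against -0.51 to -0.26. The b2m ratio was 1.394, 1.297 and 0.138 against 0.09 to 0.76, and both b2m probes had a positive difference (0.65 and 0.60). Here replicates 1 and 2 were high and replicate 3 was not, and the difference was 0.41 with the running median subtracted. Among 5 gonad markers the egg-coat gene zp2.6 was lower, at -1.44, -0.34 and -1.65 against -0.57 to -0.07.

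Genes that the study had singled out on arrays of this series are not independent evidence of a direction. Of 18 measured on kept spots, 5 were lower, gabpa, camk2d2, xrn2, apobb.1 and gfap, and 1 was higher, efnb1 (33.3% against 11.9% of all probes). On every spot 3 of 49 were higher and 5 lower (16.3% against 10.5% of all probes). Of the proposed marker genes with a probe here, sp4 differed by 0.15 ± 0.21, ncln by 0.07 ± 0.27 and apoeb by 0.15 ± 0.41. The 3 myclb probes differed by 0.49, -0.22 and 0.65. None of these passed an unadjusted p of 0.05, and the groups overlapped in each. The apoeb difference was -0.045 with the running median subtracted. For the Wnt scaffold gene axin1, 1 probe was higher by 0.62 ± 0.20 and another differed by -0.80 ± 0.24 on every spot. With the running median subtracted they differed by 0.40 and -0.65.

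The contrast was set beside another that shares no array with it, 4500 µg/L BPA minus control, over 4130 probes. The 2 sets of differences correlated across probes at r = 0.558 (jackknife SE 0.1006 over the 8 arrays of the present contrast), and 71.45% of probes had the same sign. For gabpa the mean ratio was -0.96 at 1500 and -0.07 at 500 µg/L, with -1.17 for 4500 µg/L and -0.41 for controls. For hoga1 it was 0.93 and 0.06, and 0.41 in both of the other groups. In each contrast 2 arrays had a median Cy3 background below 150 units, both times on the side of the higher concentration. With these 4 arrays left out, r was 0.122 and 54.78% of probes had the same sign, and on every spot r went from 0.53 to 0.064. This left 1 array at 1500 µg/L, 5 at 500 µg/L, 2 at 4500 µg/L and 4 controls. How much the smaller number of arrays lowered r was not tested. The Cy3 background and the concentration cannot be told apart on these arrays, and probes are not independent replicates.

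**Figure D5:**
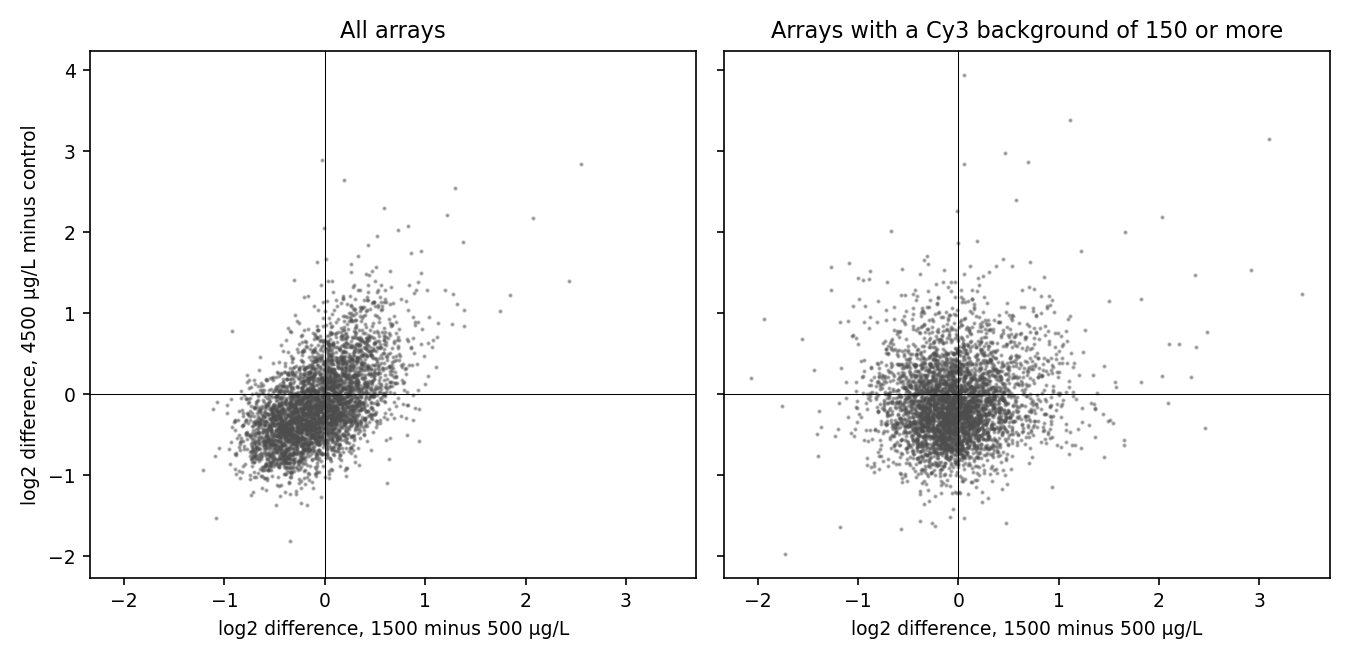
Each point is a kept probe, with its log2 difference between 1500 and 500 µg/L on the x axis and its log2 difference between 4500 µg/L and control on the y axis. The left panel uses all 16 arrays (r = 0.558). The right panel uses only the arrays with a median Cy3 background of 150 units or more (r = 0.122), and its cloud is nearly round. These are 1 array at 1500 µg/L, 5 at 500 µg/L, 2 at 4500 µg/L and 4 controls.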

How the data were processed

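Deposited files were GenePix scanner outputs of 23232 spots, and the authors' deposited intensity columns hold foreground and background brightness in each colour, extracted with GenePix. A further deposited column, a log2 ratio of Cy5 over Cy3 normalized by the authors, exists only for the spots they kept, 5127 to 16485 an array, and it served as a filter and an alternative. Intensities were corrected with normexp (offset 50) and normalized by loess within each array in limma 3.58.1 (R 4.3.3). Tables and figures used Python 3.11.15, numpy 2.4.6, pandas 2.3.3 and matplotlib 3.10.9. Spots of one accession were averaged. limma's moderated test compared 3 with 5 arrays, adjusted by Benjamini-Hochberg over all probes tested, and the procedure was tested on simulated data. The methods' t-test is an ordinary one on the same values.

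Symbols covered 11724 spots and 9259 genes, 7978 spots through an older name, 3562 directly, 129 through the platform table and 55 by accession. Lists used each gene's brightest probe, and S6 kinases were left out of the ribosomal list. Genes named are the 10 largest separated differences in each direction and fit, up to 4 genes of smallest p in each list, and genes of the study. The members, lists and rules were chosen with earlier results of these data known.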

Additional observations from a re-analysis of the deposited data

Results flagged for a closer look

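Among 122 groups of 4 or 5 values, 8 held an array far from the others of its group by Dixon's criterion, and chance marks about 1 group in 20. At 500 µg/L, replicate 2 stood out in jpt2, at 1.583 against 0.332 to 0.522, and in kifap3b, at -3.182 against -2.556 to -2.392. Replicate 4 stood out in chia.6, at -1.22 against -0.102 to 0.119, and in apobb.1, at -0.475 against -0.376 to -0.356. Replicate 5 stood out in mvk, at -0.897 against -2.199 to -1.989, in psma6a, at 0.137 against -0.143 to -0.068, and in c1galt1c1, at 0.696 against 0.012 to 0.135. All 7 of these are log2 ratios of larva over reference. The eighth was the median Cy3 foreground of replicate 1 at 4500 µg/L, at 956 scanner units against 383 to 429, an array that enters only the comparison with 4500 µg/L and control.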

How the results depend on the processing

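On kept spots the count at an adjusted p under 0.05, 0 with all 8 arrays, was 1 of 7681 probes with the repeated scan as a separate array, 637 with array quality weights, 20 of 9540 probes on arrays with a Cy3 background of at least 150 units, where the lone 1500 µg/L array is assumed to vary like the others, and 0 to 370 with 1 array left out (370 without 1500 µg/L replicate 2, 3 without replicate 3). The 494 probes at an unadjusted p under 0.05 became 326 with the spread shared over 16 arrays, 1446 of 7681 (18.8%) with the repeated scan separate, 748 of 9070 with at least 2 values a group (8.25%, a lower share than 11.9%), 1459 with weights, 116 with a block for a low Cy3 background, 2410 on every spot and 163 to 1275 with 1 array left out (247, 1275 and 163 without 1500 µg/L replicates 1, 2 and 3). On every spot the adjusted count was 12 with the repeated scan separate, 1 each without background correction, with an offset of 16, with scaling between arrays and by the methods' t-test, 234 on arrays with a high Cy3 background and 0 to 17 with 1 array left out (1 without 500 µg/L replicate 5, 17 without 1500 µg/L replicate 3). Named after their values were seen, these single probes were yipf2 without background correction and mvk without replicate 5, and the other single probes and the 3 on kept spots have no symbol here. The 2410 unadjusted calls on every spot became 4343 with the repeated scan separate, 4401 with weights, 1521 on arrays with a high Cy3 background, 968 with the Cy3 block, 494 on kept spots and 1444 to 4420 with 1 array left out (1592, 4420 and 1444 without 1500 µg/L replicates 1, 2 and 3). The correlation with 4500 µg/L minus control was 0.122 on arrays with a high Cy3 background and 0.41 to 0.5792 with 1 array left out. With a replicate block, 606 of 4088 kept probes and 2342 probes on every spot had an unadjusted p under 0.05 and 0 passed adjustment, and since deviations of same-numbered arrays correlated at 0.014, 0.19 and 0.295, the numbers were not taken as pairs. Of 2546 alternative values for the genes given above, 2374 kept their direction and side of the threshold, 127 passed it newly and 45 turned direction. With all 8 arrays 0 probes had an adjusted p under 0.05, so keeping the side mostly meant staying above that threshold. Probes chosen for separated groups could not turn direction with 1 array left out. These counts are therefore a description and no measure of robustness. Of the 127, 66 came with array quality weights and 50 without 1500 µg/L replicate 2. On kept spots these weights were 0.754, 0.248 and 2.053 for 1500 µg/L replicates 1, 2 and 3, so they also gave replicate 2 little part. In 81 of 109 probe and fit combinations there was no turn. On arrays with a high Cy3 background the difference was 0.086 for tnnc1b, 0.23 for pvalb2, 0.072 for mylpfa, 0.067 for gngt1, -0.27 for crygm7, -0.011 for efnb1, -0.077 for sult1st1, 0.24 for rps4x, -0.13 for sesn1, 0.049 for thbs4b, 0.20 for arpc5b, 0.10 for itgb1, 0.11 for prdx3, 0.12 for fsta, 0.06 for wnt11, 0.025 for nog3, 0.14 for coro1a, -0.043 for lsm7, 0.059 for ehmt1a, -0.18 for ncln, -0.11 for vtg4 and -0.19 for a myclb probe. With the Cy3 block it was 0.31 for pvalb2, -0.18 for crygm7, -0.32 for rhoac, 0.006 for itgb1, 0.18 for prdx3, -0.305 for sult1st1, -0.073 for nr5a1b, -0.056 for mcm7, 0.13 for fsta, 0.008 for wnt11, -0.002 for apoeb, -0.05 for ncln and -0.022 for vtg4. It was -0.017 for sp4 from the authors' ratios. For vtg3 it was -0.013 with the repeated scan separate, -0.047 with weights and -0.041 without 1500 µg/L replicate 1, within -0.041 to 0.156 over arrays left out. For apoeb it was -0.045 with the running median subtracted, -0.111 without 500 µg/L replicate 2 and -0.231 without 1500 µg/L replicate 3. Over arrays left out it was within -0.231 to 0.509. For ncln it was -0.079 and -0.003 without 500 µg/L replicates 2 and 5 and -0.004 without 1500 µg/L replicate 1. The cause of these changes was not tested. The authors' ratios could not be used for every spot, since they exist for kept spots alone. With 3 arrays at 1500 µg/L, 2 of them with a low Cy3 background, the number of arrays limits the precision of every value.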
